A study of Capra hircus with 6 samples.

Results

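The 10 circadian clock genes ARNTL (also called BMAL1), CLOCK, PER1, PER2, PER3, CRY1, CRY2, BHLHE40, DBP, and TEF were examined in cultured secondary hair follicle dermal papilla cells of the cashmere goat (SHF-DPCs). They were chosen by symbol from the deposited table, where all 10 have a row among 15944 genes. RNA-seq compared 3 libraries of wild-type SHF-DPCs given all-trans retinoic acid (ATRA, the ATRA-treated group) with 3 libraries of untreated wild-type cells (the control group). The cells were primary cultures from scapular skin of 3-year-old Albas goats in anagen. They were used at passages 4 to 7 in medium with 10% fetal bovine serum and received ATRA at 100 µM for 24 h. Cells of 3 animals were treated, and whether the control cultures came from those animals is not given in the sources used here. In the viability assay of the same work, control cells received an equal volume of medium.

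The mammalian clock is a loop of transcription and repression that runs in nearly every cell, skin cells included. CLOCK and ARNTL bind E-box elements as a pair and switch on the PER and CRY genes, whose proteins then return to the nucleus and repress that pair. A second loop of REV-ERB and ROR nuclear receptors sets the transcription of ARNTL, and the PAR bZIP factors DBP and TEF carry the rhythm to other genes through D-box elements. Clock transcripts are known to oscillate in skin and hair follicles. The libraries belong to a single treatment duration of 24 h, and the clock time of collection is not given in the sources used here. A shift in phase and a change in level therefore cannot be told apart.

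The clock genes were counted well above the floor of the assay. Total counts lay between 35532339 and 38012771 per library, and each of the 10 genes had between 169 and 12303 counts in every library. Most of the transcriptome differed between the groups, which sets the background for every count here. Among 12588 genes in a two-sided quasi-likelihood test of edgeR, 79.7% passed an adjusted p under 0.05, 40.9% with higher and 38.7% with lower counts in the ATRA-treated group. With the thresholds of the paper's methods, |log₂FC| above 1 and an unadjusted p under 0.05, 31.0% passed, 13.7% higher and 17.3% lower. ATRA replicate 2 stood apart from the other ATRA libraries, with a chi-square of 18.4 and 17.25 per degree of freedom against 5.01 between those, and without it the clock genes stayed at 4 higher and 4 lower. Levels below are normalized CPM, in which a gene's counts are divided by a library size scaled by the TMM method. They are not corrected for transcript length, so they are compared between groups and not between genes.

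The labelled cell type was checked against its markers. Of 10 mesenchymal and dermal papilla markers, 8 passed the expression filter. At the adjusted threshold of 0.05, 7 of these were lower with ATRA, beside 38.7% lower of all genes tested. Their summed level was 54700 to 57470 CPM in the control group and 2507 to 2604 CPM in the ATRA-treated group. Most of the control sum came from COL1A1, VIM, and ACTA2, with means of 27440, 19158, and 6582 CPM. Past |log₂FC| above 1 were 5 of the markers, all lower, beside 17.3% of all genes tested lower at the thresholds of the paper's methods. PDGFRB was at -0.44, LEF1 at -0.54, and TWIST1 at -0.14 (adjusted p = 0.0523, edgeR). In the paper, purified cells stained positive for the proteins α-SMA and CD133, and adipose stem cells, used as a negative control, did not. The counts given next are of RNA and not of protein. ACTA2, the α-SMA gene, fell from 200752 to 220329 counts per control library to 332 to 397 per ATRA library (log₂FC -9.62, adjusted p = 1.19e-21). PROM1, the CD133 gene, had 1 count in a single control library and 0 in the other libraries, and ALPL had 1 count in a single ATRA library. Of 21 markers of keratinocytes, endothelium, leukocytes, melanocytes, adipocytes, and muscle, 9 passed the filter. In the ATRA-treated group 6 of them were higher and 2 lower, beside 40.9% higher and 38.7% lower of all genes tested. The summed level of these 9 was 26.2 to 26.8 CPM in the control group and 57.2 to 65.3 CPM in the ATRA-treated group. MITF had the highest mean of the 9 in both groups, 13.0 and 32.7 CPM. The melanocyte marker PMEL fell (log₂FC -0.90), and TYR, DCT, and MLANA had no row. KRT14, which did not pass the filter, had 20, 14, and 10 counts in the control libraries and 3, 0, and 0 with ATRA. PECAM1 was at 0 in all control libraries and had 242, 340, and 206 counts with ATRA, whereas the endothelial marker CDH5 was at 0 except for 1 count in a single ATRA library. Of the other endothelial markers, KDR had 5, 6, and 10 counts in the control libraries and 2, 1, and 0 with ATRA. VWF had a log₂FC of 0.065 (adjusted p = 0.909, edgeR). The part of these shifts in the clock results was not tested, and fewer cells of a type cannot be told apart from less RNA per cell.

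Compared with the control group, PER1, CRY1, CRY2, and BHLHE40 (4 genes) were higher and CLOCK, PER2, PER3, and TEF (4 genes) were lower with ATRA, with the adjusted p under 0.05. ARNTL and DBP did not pass. These 8 of 10 genes (80%) stand beside 79.7% of all genes tested, so the number of changed clock genes at this threshold was near the background. When libraries were scaled by size only, 6 clock genes were higher, ARNTL and DBP among them, and 3 lower, with CLOCK not called. Beside them, 7921 of all 12588 genes tested were higher and 2861 lower with that scaling. At the thresholds of the paper's methods, PER1, CRY2, and BHLHE40 (3 genes) were higher and PER2 and PER3 (2 genes) lower, beside 13.7% higher and 17.3% lower of all genes tested. The median log₂FC of the 10 genes was -0.13, against 0.04 for all genes tested. The control and ATRA libraries did not overlap for the 8 genes that passed, 4 in each direction, against 80.1% of all genes (41.2% higher and 39.0% lower with ATRA). Repressors of the loop moved both ways (4 rose, 2 fell), while ARNTL stayed within the spread of its libraries.

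The 3 PERIOD genes encode the repressor subunits that give the loop its delay, and they did not move together. PER1, an immediate responder to signals that act through CREB and the glucocorticoid receptor, had 6.73, 6.68, and 7.66 CPM in the control libraries and 32.5, 32.1, and 30.9 CPM with ATRA. Every ATRA library lay above every control library, by more than 4 times. Its log₂FC was 2.18 (SE 0.0894, 95% interval 1.99 to 2.37, adjusted p = 6.98e-14, edgeR), and 4.67% of all genes tested had a larger log₂FC.

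PER2, the PERIOD gene altered in a familial form of advanced sleep phase, went the other way. Its control libraries had 10.4, 8.47, and 9.18 CPM, and its ATRA libraries 4.72, 4.31, and 4.08 CPM. The groups were apart, and the log₂FC was -1.09 (SE 0.126, 95% interval -1.36 to -0.83, adjusted p = 2.53e-07). PER3, a PERIOD gene that mouse clocks can run without, had 14.7, 12.2, and 14.8 CPM in the control group and 5.02, 6.14, and 4.33 CPM with ATRA. It had the lowest log₂FC of the 10 genes, at -1.43 (SE 0.131, adjusted p = 1.14e-08), and 12.2% of all genes tested had a smaller log₂FC. The fall of both genes is also seen in the unscaled counts, where PER2 went from 274 to 322 per control library to 169 to 204 per ATRA library, and PER3 from 394 to 477 to 179 to 271. When libraries were scaled by their size alone, the log₂FC of PER2 was -0.62 and that of PER3 was -0.95, both with an adjusted p under 0.05 and neither past |log₂FC| above 1. By the unequal-variance test on log2(CPM + 1) PER2 was at -0.94.

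**Figure D1:**
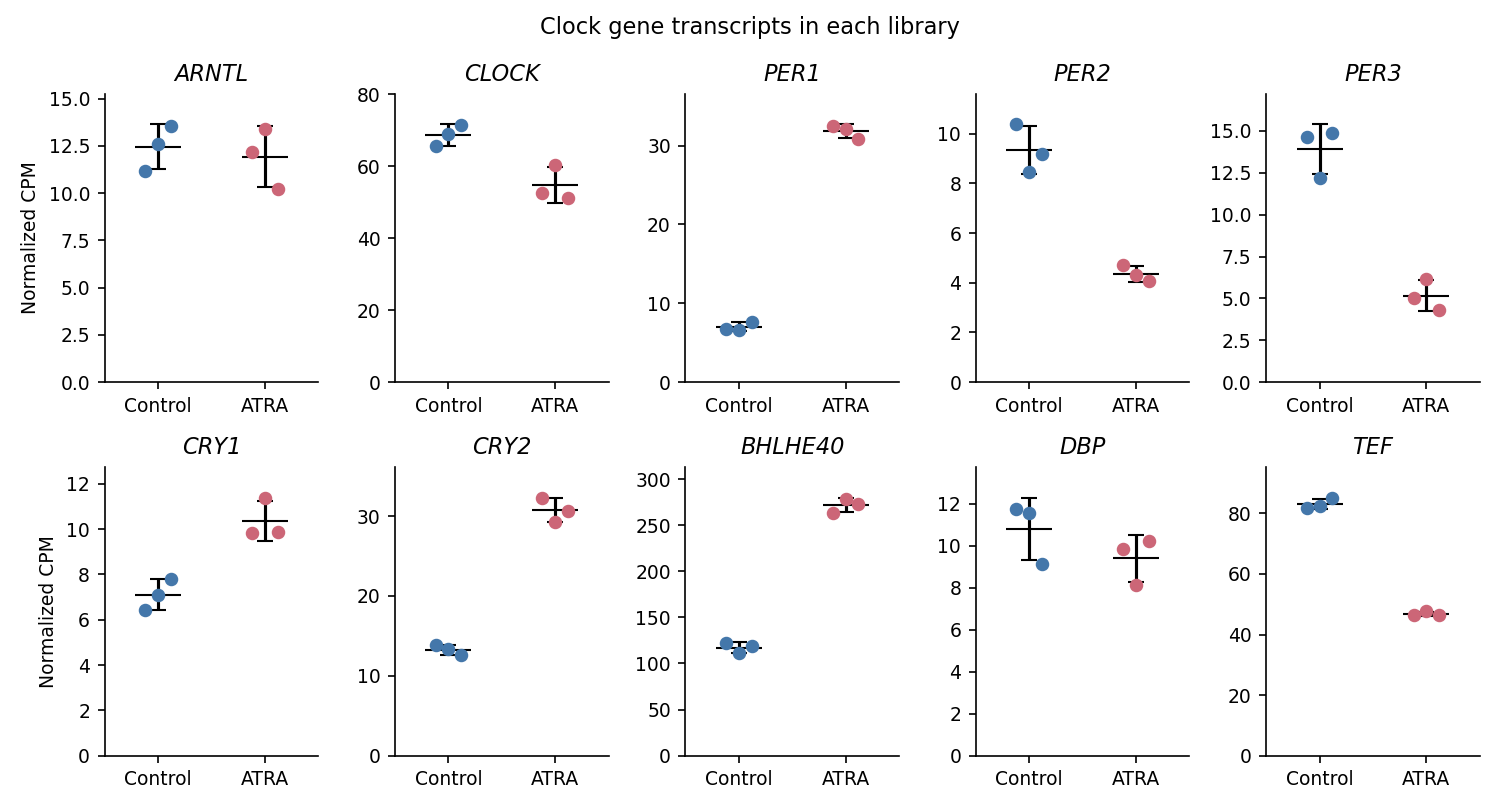
Normalized CPM (y axis, linear from 0) of each of the 10 clock genes in the 3 control and 3 ATRA libraries. Points are libraries, and horizontal lines and bars are the mean and SD. PER1 rose to 31.8 ± 0.862 CPM while PER2 and PER3 fell to 4.37 ± 0.323 and 5.16 ± 0.918 CPM (SD, n = 3), and the groups of ARNTL and DBP overlap.

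Both cryptochromes, the partners of the PERIOD proteins and the stronger repressors of CLOCK and ARNTL, rose with ATRA. CRY2 had 13.9, 13.3, and 12.6 CPM in the control group and 32.3, 29.2, and 30.7 CPM with ATRA, with a log₂FC of 1.21 (SE 0.0820, adjusted p = 1.34e-10). CRY1 had 6.44, 7.11, and 7.78 CPM in the control group and 9.83, 11.4, and 9.86 CPM with ATRA, with a log₂FC of 0.54 (SE 0.115, adjusted p = 0.000303). The groups were apart for both genes. The 95% intervals of the log₂FC, 1.04 to 1.39 for CRY2 and 0.30 to 0.78 for CRY1, do not meet.

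BHLHE40 encodes DEC1, a basic helix-loop-helix repressor that competes for the same E-boxes and also responds to hypoxia, serum, and retinoic acid in other cells. It had 122, 111, and 119 CPM in the control group and 263, 279, and 273 CPM with ATRA. Every ATRA library lay more than 2 times above every control library, and the log₂FC was 1.21 (SE 0.0570, 95% interval 1.09 to 1.33, adjusted p = 5.64e-13). Of the 4 clock genes that rose, PER1 rose most and CRY1 least. In the RefSeq table of the goat (assembly ARS1.2), the span of BHLHE40 overlaps that of a long non-coding RNA and the span of CRY1 overlaps that of a pseudogene. The strand setting of the counting is not given in the sources used here, so the part of these models in the counts was not tested.

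The activators of the loop moved little. ARNTL had 11.2, 12.6, and 13.5 CPM in the control group and 12.2, 13.4, and 10.2 CPM with ATRA. The groups overlapped, and the log₂FC was -0.060 with a 95% interval of -0.30 to 0.18 (adjusted p = 0.628). CLOCK, the partner of ARNTL and a histone acetyltransferase, had 65.6, 68.9, and 71.4 CPM in the control group and 52.7, 60.4, and 51.2 CPM with ATRA. The groups did not overlap, and the log₂FC was -0.33 (SE 0.0712, adjusted p = 0.000407), or -0.41 without ATRA replicate 2.

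The sign of these small differences rests on the scaling. Dividing by library size only moves the median log₂FC of all genes tested from 0.04 to 0.52, and under it CLOCK had a log₂FC of 0.15 (adjusted p = 0.0693) and ARNTL 0.42 (adjusted p = 0.00364). Measured from the median of all genes, the log₂FC of CLOCK was -0.36 with both scalings, and that of ARNTL was -0.098 with TMM and -0.097 with library size only. A scaling factor moves all genes by about the same amount, so this distance is nearly fixed by construction.

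DBP and TEF are close relatives that bind the same D-box elements, and DBP is among the most strongly rhythmic clock outputs. DBP had 11.8, 11.6, and 9.12 CPM in the control group and 9.83, 8.12, and 10.2 CPM with ATRA. The groups overlapped, and the log₂FC was -0.20 (95% interval -0.46 to 0.05, adjusted p = 0.135). Without Control replicate 3, the lowest of the control libraries, the log₂FC was -0.31 with an adjusted p of 0.0330, and with library size only it was 0.27 (adjusted p = 0.0449). TEF had 81.8, 82.5, and 85.1 CPM in the control group and 46.5, 47.7, and 46.4 CPM with ATRA. Its libraries were tightly grouped and far apart between the conditions, with a log₂FC of -0.83 (SE 0.0602, adjusted p = 4.09e-10). TEF kept a negative log₂FC of -0.35 with library size only.

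The ratio of the counts of a pair of clock genes within a library does not depend on how libraries are scaled against each other. These ratios are given with no test. The log2 ratio of PER1 over ARNTL was -0.82 ± 0.0930 (SD, n = 3) in the control group and 1.42 ± 0.166 with ATRA, a shift of 2.25. PER2 over ARNTL went from -0.41 ± 0.265 to -1.44 ± 0.170, and PER3 over ARNTL from 0.16 ± 0.221 to -1.21 ± 0.0793. PER1 over PER2, a pair chosen after the values were seen, was -0.41 ± 0.189 in the control group and 2.86 ± 0.0721 with ATRA (SD, n = 3), a 9.66-fold shift. PER1 over PER3, chosen likewise, shifted 12.3-fold.

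Among the other repressors, CRY2 over ARNTL shifted by 1.28 and BHLHE40 over ARNTL also by 1.28 on the log2 scale, while CRY1 over ARNTL shifted by 0.61. The balance within the cryptochromes changed with it, since CRY1 over CRY2 went from -0.90 ± 0.206 to -1.57 ± 0.186 (SD, n = 3). Between the activators, ARNTL over CLOCK went from -2.47 ± 0.0779 in the control group to -2.20 ± 0.109 with ATRA, a shift of 0.26. Its groups did not overlap, and the shift ranged from 0.22 to 0.32 with each library left out. DBP over ARNTL overlapped between the groups, with control libraries from -0.57 to 0.073 and ATRA libraries from -0.72 to 0.0034, and its shift of -0.13 ranged from -0.32 to 0.055 with each library left out, above 0 without Control replicate 1 or ATRA replicate 2. DBP over TEF went from -2.95 ± 0.235 to -2.32 ± 0.201.

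**Figure D2:**
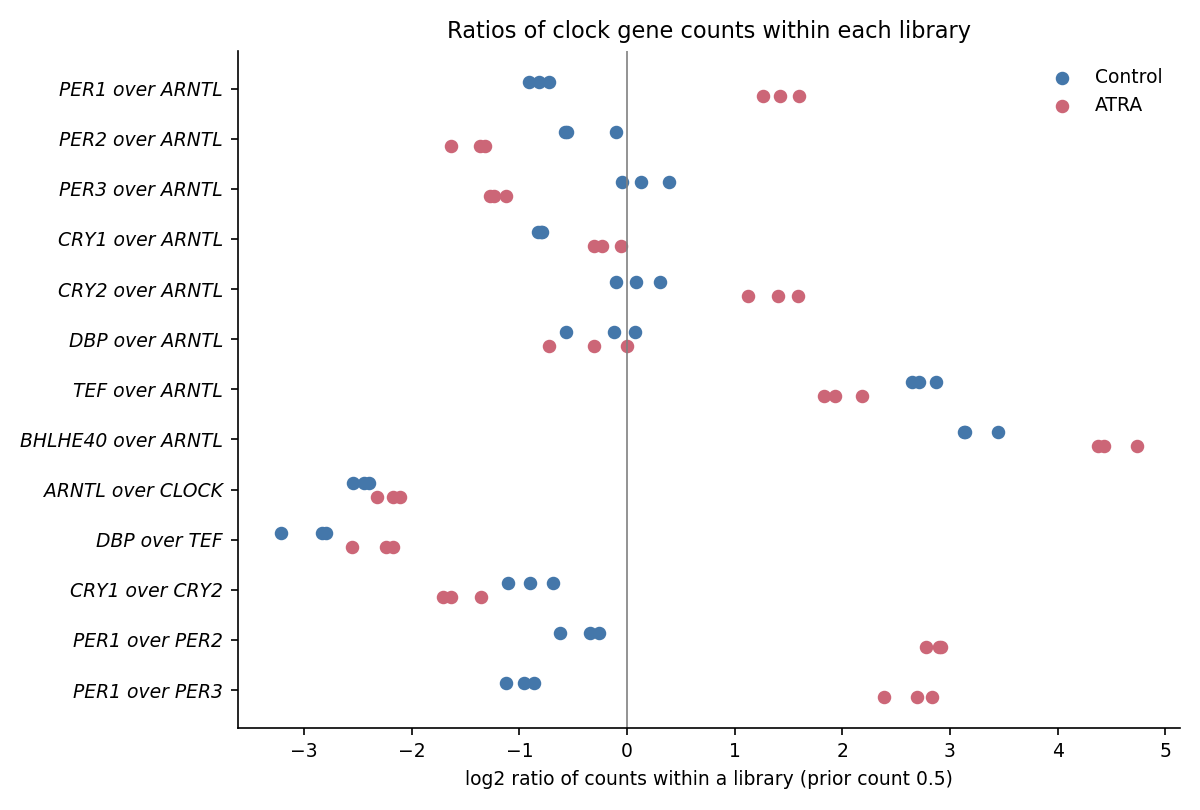
Log2 ratio of the counts of a pair of clock genes within each library (x axis, prior count 0.5), with control libraries in blue and ATRA libraries in red, 3 points each. The ATRA libraries of PER1 over PER2 sit between 2.78 and 2.91 and the control libraries between -0.62 and -0.26, whereas those of DBP over ARNTL overlap.

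Of 11 genes of the second loop and paralogs of the clock genes, 10 passed the expression filter, and of these 7 rose and 3 fell at the adjusted threshold of 0.05, beside 40.9% higher and 38.7% lower of all genes tested. Their median log₂FC was 0.55, against 0.04 for all genes tested. RORB had 2 counts in a single ATRA library and was not tested. RORA, the ROR receptor that activates ARNTL transcription, had 58, 36, and 51 counts in the control libraries and 492, 506, and 421 with ATRA, with a log₂FC of 2.85 (SE 0.160, adjusted p = 8.37e-12). It rose in libraries where ARNTL itself did not pass the test. The REV-ERB receptors, which repress ARNTL, rose less. NR1D1 (REV-ERBα) had 22.9, 16.4, and 23.3 CPM in the control group and 29.6, 27.6, and 24.7 CPM with ATRA, with a log₂FC of 0.39 (adjusted p = 0.00411). With the unequal-variance test its log₂FC was likewise 0.39 with an adjusted p of 0.146, and without Control replicate 2, the lowest control library, it was 0.24 (adjusted p = 0.0301, edgeR). The log₂FC of NR1D2 (REV-ERBβ) was 0.72 (adjusted p = 6.77e-08), from 56.2 ± 1.22 to 92.6 ± 10.9 CPM (SD, n = 3).

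The largest rises of this list after RORA were those of transcriptional repressors. NFIL3 (E4BP4), which binds the D-box against DBP and TEF, had 28.5, 30.1, and 28.0 CPM in the control group and 173, 162, and 175 CPM with ATRA. Its log₂FC was 2.56 (SE 0.0634, adjusted p = 3.50e-17), with no overlap between the groups, while TEF fell and DBP overlapped. BHLHE41 (DEC2), the paralog of BHLHE40, went from 19.0 ± 0.865 to 81.8 ± 3.98 CPM (SD, n = 3), with a log₂FC of 2.11 (adjusted p = 3.79e-15). Its 95% interval of 1.96 to 2.25 lies above that of BHLHE40. CIPC, an inhibitor of CLOCK, had a log₂FC of 0.36 (adjusted p = 0.000200). CIART, a repressor of the CLOCK and ARNTL pair, fell from 7.56 ± 0.686 to 2.98 ± 0.150 CPM (SD, n = 3), with a log₂FC of -1.34 (adjusted p = 4.70e-08), or -0.86 with library size only.

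The paralogs of the activators moved in opposite directions. NPAS2, which can take the place of CLOCK, had a log₂FC of 1.46 (SE 0.128, adjusted p = 6.13e-09), from 3.58 ± 0.404 to 9.81 ± 0.530 CPM (SD, n = 3). ARNTL2, the paralog of ARNTL, had a log₂FC of -1.32 (SE 0.214, adjusted p = 1.88e-05), from 3.37 ± 0.527 to 1.35 ± 0.326 CPM. The log₂FC of ARNTL2 was -0.84 with library size only and -0.90 by the unequal-variance test. HLF, the relative of DBP and TEF, was near the floor with 32, 16, and 40 counts in the control libraries and 7, 17, and 6 with ATRA. The log₂FC of HLF was -1.97 (adjusted p = 0.000456), or -0.63 by the unequal-variance test on log2(CPM + 1) (adjusted p = 0.0709), and the raw count of Control replicate 2 was below that of ATRA replicate 2. Without ATRA replicate 2 its log₂FC was -2.57. Together with TEF and DBP, none of the 3 PAR bZIP genes had a log₂FC above 0, except DBP with library size only.

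**Figure D3:**
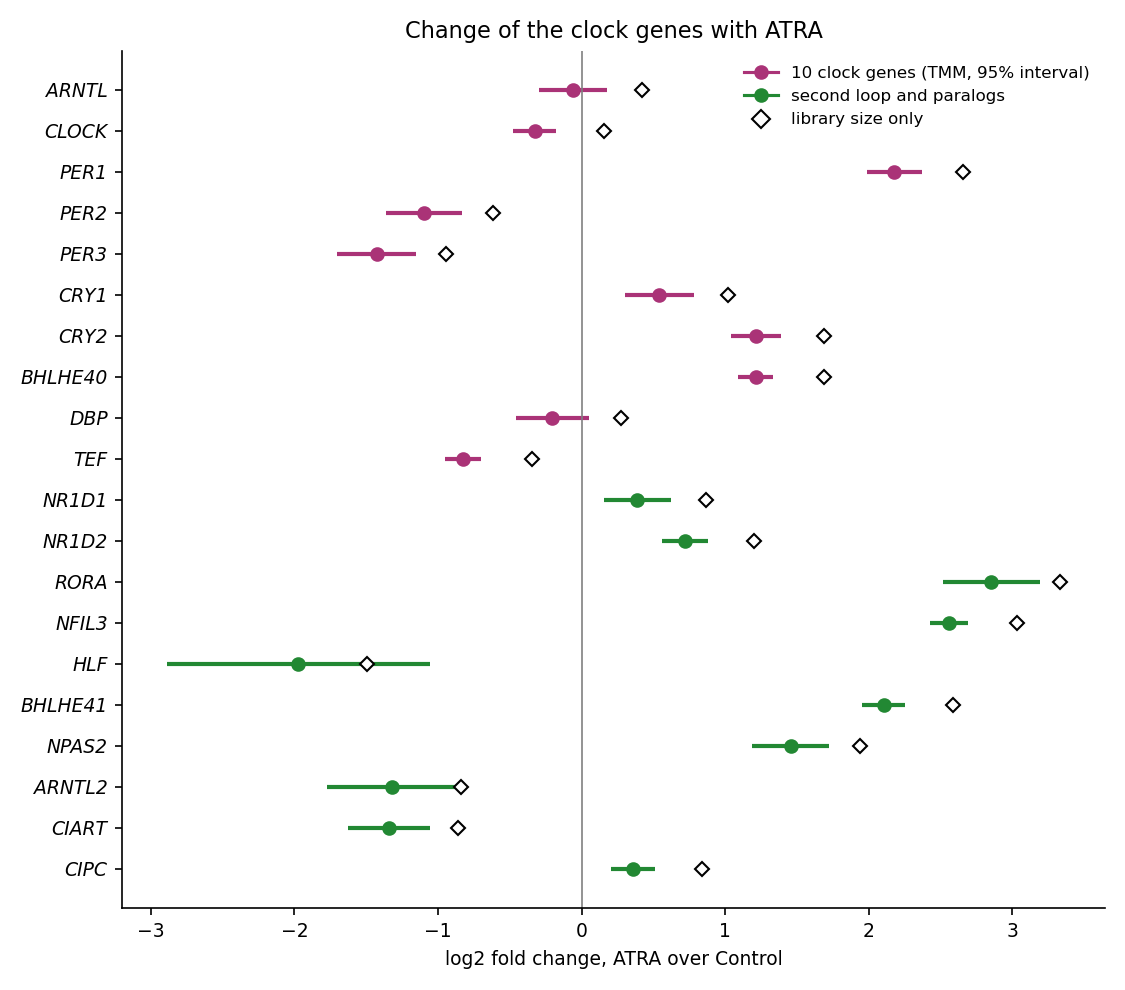
Log2 fold change (x axis, ATRA over control) of the 10 clock genes in purple and of 10 genes of the second loop and paralogs in green. Filled points and lines are the TMM estimate with its 95% interval, and open diamonds are the estimate with library size only, which lies about 0.5 to the right for each gene. ARNTL, CLOCK, and DBP are the genes whose sign turns.

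Stability and nuclear entry of the PERIOD and cryptochrome proteins are set largely by kinases and ubiquitin ligases. The list of regulators also held the deacetylase gene SIRT1 and TIMELESS. Of its 10 genes tested, 4 were higher, 3 lower, and 3 not called, beside 40.9% higher and 38.7% lower of all genes tested, with a median log₂FC of 0.080. The casein kinase gene CSNK1D, whose product marks PERIOD proteins for breakdown, had a log₂FC of 0.080 (adjusted p = 0.174), from 143.0 to 146.1 CPM in the control group to 149.6 to 155.3 CPM with ATRA, without overlap. CSNK1D passed with the unequal-variance test (adjusted p = 0.0298), with upper-quartile scaling (0.16, adjusted p = 0.0117), and with library size only (0.56, adjusted p = 4.32e-08). PRKAA2 and TIMELESS were past |log₂FC| above 1. PRKAA2, a catalytic subunit of the energy sensor AMPK, which marks CRY1 for breakdown, had 6, 4, and 4 counts in the control libraries and 93, 110, and 97 with ATRA (log₂FC 3.96, SE 0.324, adjusted p = 2.23e-09). Measured as log2(CPM + 1), the rise of PRKAA2 was 1.54. PRKAA1, the other catalytic subunit, went the other way, from 38.0 ± 1.47 to 29.2 ± 4.33 CPM (SD, n = 3), with a log₂FC of -0.38 (adjusted p = 0.000970, edgeR). The log₂FC of PRKAA1 was 0.10 with library size only (adjusted p = 0.337), and -0.38 with the unequal-variance test (adjusted p = 0.102). TIMELESS, which in mammals serves mainly at the replication fork, fell from 14.1 ± 2.14 to 6.15 ± 0.0806 CPM (SD, n = 3), with a log₂FC of -1.20 (adjusted p = 2.73e-08), or -0.72 with library size only.

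Of 7 genes described as outputs of the clock, 3 were higher, 3 lower, and 1 was not called, beside 40.9% higher and 38.7% lower of all genes tested. NAMPT, the rate-limiting enzyme of NAD salvage and an E-box target, had 36.6, 39.2, and 36.7 CPM in the control group and 276, 314, and 282 CPM with ATRA. Its log₂FC was 2.95 (SE 0.0664, adjusted p = 8.50e-18). CDKN1A, which encodes the cell cycle inhibitor p21 and is also a p53 target, had a log₂FC of 1.99 (adjusted p = 2.74e-16), and PPARA, a nuclear receptor of lipid metabolism, 1.29 (adjusted p = 4.28e-09). WEE1, a kinase that holds back entry into mitosis, fell from 29.0 ± 1.25 to 10.5 ± 0.965 CPM (SD, n = 3), with a log₂FC of -1.46 (adjusted p = 2.80e-11). KLF10, a TGF-β-inducible factor, had a log₂FC of -1.06 (adjusted p = 2.01e-09). With library size only WEE1 was at -0.99 and KLF10 at -0.58, both short of |log₂FC| above 1. KLF10 was also short of it with upper-quartile scaling (-0.98) and without ATRA replicate 1 (-0.9986). KLF9, the other lower gene, had a log₂FC of -0.30 with edgeR and -0.29 with the unequal-variance test, where its adjusted p was 0.0707.

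Of 7 genes that carry signals to the clock, 6 were higher, none was lower, and CRTC1 was not called (log₂FC -0.024, adjusted p = 0.804), beside 40.9% higher and 38.7% lower of all genes tested, with a median log₂FC of 0.26. The log₂FC of CREB1 was 0.25 and that of NR3C1 0.18, and their calls were lost in several alternatives. The highest adjusted p was 0.282 for CREB1, with a log₂FC of 0.23 by the unequal-variance test, and 0.232 for NR3C1, with a log₂FC of 0.083 without ATRA replicate 2. Without that library the log₂FC of CREB1 was 0.11 (adjusted p = 0.268, edgeR). CRTC3 had a log₂FC of 0.26 in both the edgeR and the unequal-variance test, with an adjusted p of 0.00377 and 0.135. Without Control replicate 2 the log₂FC of CRTC3 was 0.17 (adjusted p = 0.0250, edgeR). SIK1, a kinase induced by CREB that restrains the response of PER1 to light in the brain, had 133, 159, and 122 counts in the control libraries and 1719, 1887, and 1712 with ATRA. Its log₂FC of 3.25 (SE 0.0987, adjusted p = 7.50e-16) was the largest of these 7 genes. Over the 4 lists, 85.3% of 34 genes tested passed, 20 higher and 9 lower, beside 79.7% of all genes.

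**Figure D4:**
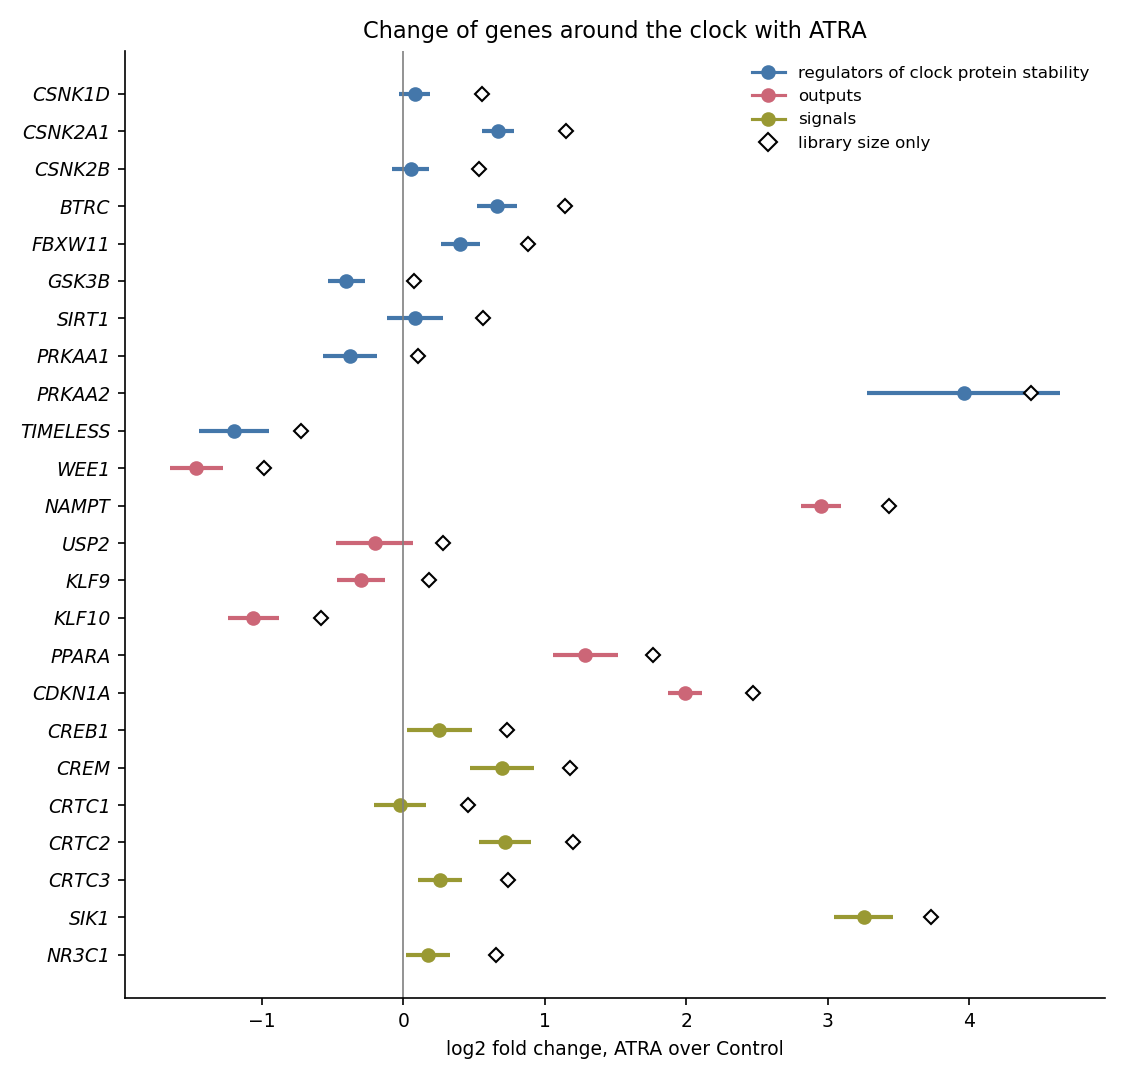
Log2 fold change (x axis, ATRA over control) of 24 genes that regulate clock proteins (blue), are driven by the clock (red), or signal to it (olive). Filled points and lines are the TMM estimate with its 95% interval, and open diamonds the estimate with library size only. PRKAA2, SIK1, and NAMPT lie farthest to the right, at 3.96, 3.25, and 2.95.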

How the data were processed

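The deposited table holds raw read counts per gene for 3 control and 3 ATRA libraries. Per the labels and the paper's methods, the authors enriched poly(A) mRNA, cleaned reads with fastp and TrimGalore (v0.6.6), and used HISAT2, featureCounts, and DESeq2, named in the submitters' processing notes without versions. The genome build, annotation, and strand setting are not given in the sources used here. Every per-sample column was used, and columns were matched to samples by treatment and number.

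Genes passing edgeR's expression filter (12588) were TMM-scaled. Groups were compared by the quasi-likelihood test of edgeR (two-sided, robust, no covariate, prior count 0.125), with Benjamini-Hochberg adjustment over all genes tested. The standard error (SE) was computed as |log₂FC| divided by √F. This count test was preferred to the t.test function of R named in the paper's methods, because the values are counts. An unequal-variance t-test on log2(CPM + 1), with the same adjustment, was run as an alternative. The paper does not give the input scale or the variance setting of its own test. Ratios within a library used a prior count of 0.5. The genes named are the 10 clock genes, every tested gene of the second-loop list, and genes of 3 further lists with |log₂FC| above 1 and an adjusted p under 0.05. CSNK1D, PRKAA1, CRTC1, CRTC3, CREB1, KLF9, and NR3C1 were named after their values were seen, as were list genes whose sign turned with a setting. Some genes of these lists are not reported here. The clock genes and all lists were chosen with earlier results of these data known. No pair of libraries within a group matched within sampling noise (chi-square from 5.01 to 18.4 per degree of freedom), and the labels give all libraries the same batch, 1. The p-values measure the spread between these libraries. The scripts were tested on simulated data. Planned comparisons of promoter and protein sequences were not made, and RefSeq coordinates (ARS1.2) served only to find overlapping gene models. Alternatives were DESeq2, RLE and upper-quartile scaling, library size only, TMM without the 100 most abundant genes, 2 other filters, a non-robust fit, a block for the replicate number, and leaving out each library. Versions: DESeq2 1.42.0, edgeR 4.0.16, R 4.3.3, matplotlib 3.10.9, Python 3.11.15.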

Additional observations from a re-analysis of the deposited data

How the results depend on the processing

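PER1, PER2, PER3, CRY1, CRY2, BHLHE40, and TEF kept their direction and an adjusted p under 0.05 in all 16 alternatives. With library size only, the log₂FC turned for ARNTL (0.42), CLOCK (0.15), DBP (0.27), GSK3B (0.075), PRKAA1 (0.10), USP2 (0.28), KLF9 (0.18), and CRTC1 (0.45), by construction of a scaling that moves the median of all genes to 0.52. Upper-quartile scaling moved that median to 0.11 and turned ARNTL (0.017) and CRTC1 (0.053). With each library left out in turn, the log₂FC ranged from -0.16 to 0.031 for ARNTL (above 0 without Control replicate 3 or ATRA replicate 3), from -0.31 to -0.11 for DBP (called without Control replicate 3), from -0.060 to 0.0024 for CRTC1, and from -0.030 to 0.17 for SIRT1 (below 0 without ATRA replicate 2). Of the clock genes, 2 were lower past |log₂FC| above 1, against 1 with the unequal-variance test and 0 with library size only. Past the same threshold 3 were higher, against 4 with library size only, where CRY1 was at 1.02. At an adjusted p under 0.05, library size only gave 6 clock genes higher and 3 lower, against 4 and 4. Of the 4 lists, 9 genes were lower, against 6 with the unequal-variance test and 6 with library size only. The higher genes of the 4 lists numbered 20, against 17 with the unequal-variance test and 24 with library size only. With library size only, 7921 genes were higher and 2861 lower over the whole table at an adjusted p under 0.05, and 3390 were higher past |log₂FC| above 1. The unequal-variance test gave 1093 higher past that threshold. The cause of its differences was not tested.

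The replicate block left the clock genes at 4 higher and 4 lower, with a log₂FC of 2.18 for PER1, and changed the higher genes of the 4 lists from 20 to 19. The deviations of same-numbered libraries from their group means had correlations of 0.089, 0.030, and -0.076. Those of libraries with different numbers ranged from -0.13 to 0.10, and 3 of 6 libraries correlated best with their own number. HLF was not tested where a CPM of at least 1 was required in at least 3 libraries. The clock genes had 169 or more counts in each library, whereas HLF, PRKAA2, and RORB rest on few counts.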
